A study of Homo sapiens with 8 samples.

Results

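In HEK293F cells, 117 genes had lower RNA levels than control cells both when MOV10 was overexpressed and when it was knocked down. They were selected on these measurements, from 11937 genes past an abundance floor among 23368 gene symbols counted. For each library, counts were divided by the library total and scaled to counts per 1 M (CPM). A gene was a member when its mean CPM over all libraries was at least 5 and when the log2 ratios of group means, overexpression to control and knockdown to control, were both -0.35 or lower after 0.5 was added to each mean. The same limits left 606 genes lower with overexpression alone, 1163 lower with knockdown alone, and 287 at 0.35 or higher with both treatments.

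HEK293F is a line of human embryonic kidney cells, kept here in medium with serum. Total RNA was sequenced from 3 libraries of cells that received an irrelevant siRNA (the controls), 2 libraries of cells that received MOV10 siRNA and 3 libraries of cells transfected with a plasmid for myc-tagged MOV10. Both siRNAs were given 3 times, 24 h apart, whereas the plasmid was given 1 time. The overexpression group therefore differed from its control in the number and kind of transfections as well as in MOV10, and the effect of plasmid transfection alone was not measured in the libraries used here. The labels do not say whether replicates came from separate cultures, so p-values describe only how far the libraries scatter, and that scatter may be technical.

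The helicase MOV10 binds messenger RNAs, largely in their 3′ untranslated regions (3′UTRs), and associates with Argonaute proteins and with FMRP, the protein lost in fragile X syndrome. Depending on the transcript, it is known to help microRNA-guided silencing or to hinder it, and it restricts retroviruses and mobile elements. Both ratios share the same 3 control libraries, so a high control value lowers both at the same time.

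MOV10 itself was at 76.4, 76.2 and 91.3 CPM in the controls, at 3040, 3000 and 2512 CPM with overexpression and at 48.6 and 53.9 CPM with knockdown. The 3 groups did not overlap. The log2 fold change was 5.10 ± 0.08 (SE) with overexpression (edgeR quasi-likelihood test, adjusted p = 2.1e-21) and -0.62 ± 0.08 with knockdown (adjusted p = 8.84e-06). The knockdown thus left 63.1% of the control level. Library totals ran from 12.7 M to 32.8 M counts, and the shallowest library was overexpression replicate 3. Of 10 HEK293 marker genes all passed the abundance floor, against 3 of 10 fibroblast markers, 0 of 10 blood cell markers and 0 of 8 endothelial markers. HBB, MS4A1 and CLDN5 were at 0 in every library. The summed HEK293 markers lay at 1430 to 1447 CPM in controls, 1312 to 1379 with overexpression and 1602 to 1653 with knockdown. HOXA9, 1 of these markers, is itself a member. The summed fibroblast markers lay at 66.2 to 72 CPM in controls, 69.9 to 78.5 with overexpression and 49.6 to 52.2 with knockdown. The part of either sum in the members' values was not tested.

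Some members hold short words in their 3′UTRs that went with lower RNA after knockdown in other genes. The words were found among genes that are no members: of all 8-base words, the 3 whose holders had the lowest knockdown fold changes for their number were AGCAAACA, GTCTGTTA and TGGGTCTT, read on the transcript strand, with words that share 6 bases barred. The sites below are a selection. They lie in members that differed between the treatments or stood lowest with both, and IDS was among those with the highest control CPM. Not shown are, among others, sites in DNAJC5, PIP5K1C and ZNF783, called lower with overexpression than with knockdown, and in RNFT2, called higher. A site in GATAD2A, also among the members with the highest control CPM, is left out too. Capitals mark the word, and coordinates are in GRCh38 from GENCODE 29, which is a later build than the hg19 the counts were made on.
KIF1C, chr17:5024684-5024707, plus strand: taaaggatAGCAAACAgggagctt
KIF1C, chr17:5025222-5025245, plus strand: gcaccactGTCTGTTAtggacaaa
PNMAL1, chr19:46467924-46467947, minus strand: gttttagaGTCTGTTAgtaaaaat
WASF3, chr13:26685981-26686004, plus strand: aaaaattcTGGGTCTTttcagtat
HLA-DOA, chr6:33005027-33005050, minus strand: gaacctggGTCTGTTAgggcatca
IDS, chrX:149482456-149482479, minus strand: aaatacaaAGCAAACAaactcaag
SLC43A2, chr17:1572380-1572403, minus strand: ctcatataTGGGTCTTaagacact

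At least 1 of the words was in 16 of the 115 members with a usable 3′UTR (13.9%), in 11.6% of all genes past the floor, in 25.4% of genes lower with knockdown alone, in 7.97% of those lower with overexpression alone and in 5.68% of those higher with both. The members' share thus lay close to that of all genes. By word, the shares of members and of all genes were 3.48% and 5.2% for AGCAAACA, 6.09% and 3.08% for GTCTGTTA, and 6.09% and 4.46% for TGGGTCTT. These shares are descriptions, since knockdown values chose both the words and the members. A match does not show a site that any factor uses.

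By construction every member was low in both treated groups, and the size of the difference was moderate. The median log2 ratio was -0.47 with overexpression (72.1% of control, range -0.96 to -0.35) and -0.53 with knockdown (69.4% of control, range -1.21 to -0.35). The medians over all genes past the floor were 0.03 and -0.03. With knockdown 6 members were at -1 or lower, namely PACSIN1, SPTBN4, WASF3, ZNF117, ERV3-1 and SH3D21. No member was that low with overexpression, where the lowest were RAB36 (-0.96), SLC43A2 (-0.90), SCAMP5 (-0.89) and DRP2 (-0.89). The edgeR test called 117 of 117 members lower in each contrast, against a background of 24.1% of 15254 genes tested for overexpression and 19.1% for knockdown. These calls use the values the members were selected on and support nothing further. In 116 members all overexpression libraries lay below all controls (26.2% of genes past the floor did), in 117 both knockdown libraries did (38.7%), and in 116 both held (12.8%). The exception was FRMPD4, where the third overexpression library (5.5 CPM) lay just above the lowest control (5.42 CPM).

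**Figure D1:**
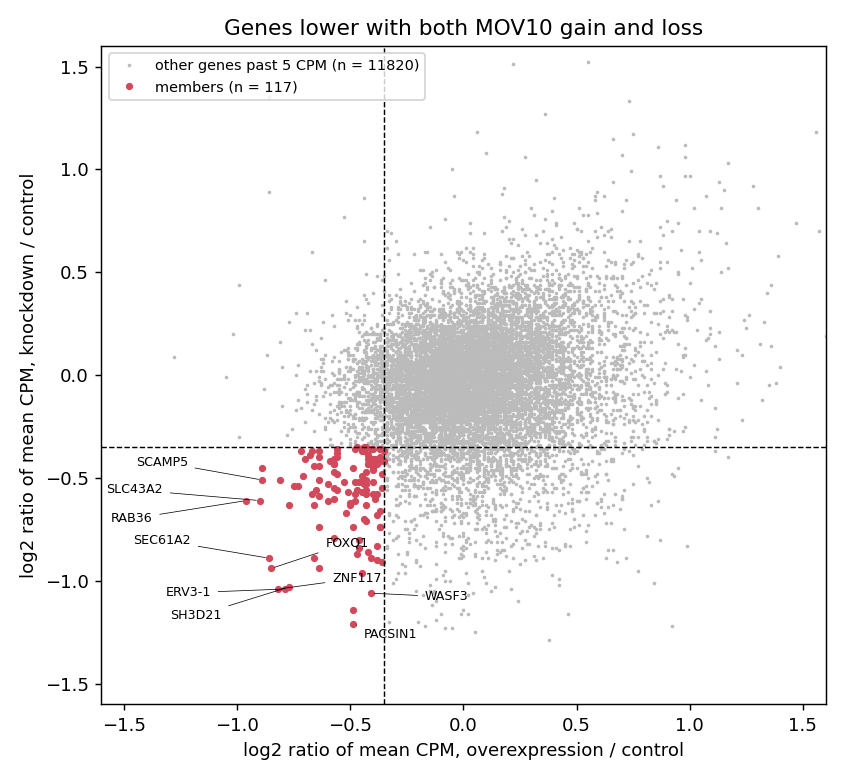
Log2 ratio of mean CPM to control with MOV10 overexpression (x axis) and knockdown (y axis) for genes past 5 CPM, with the 117 members in red and dashed lines at -0.35. The members fill the lower left corner by the rule that chose them, from the threshold to -0.96 on the x axis and -1.21 on the y axis; 9 genes, none a member, lie beyond the axes, which end at 1.6.

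At the threshold, the last genes inside were ACOT7 (-0.35 with overexpression and -0.42 with knockdown), HYLS1 (-0.43 and -0.35) and CISD3 (-0.44 and -0.35). The nearest outside were NOL4 (-0.35 and -0.46), SH3GLB2 (-0.35 and -0.46) and ALDOC (-0.36 and -0.35), whose ratios missed it only before rounding.

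The 12 members with the lowest mean of both ratios came from different gene families. ZNF117, a zinc finger gene on chromosome 7, was at 19.9, 22.3 and 22.7 CPM in controls, 11.9, 10.2 and 14.1 CPM with overexpression and 9.9 and 10.7 CPM with knockdown. ERV3-1, a gene derived from the envelope of an endogenous retrovirus, was at 7.49, 9.39 and 10.3 CPM, then 5.76, 4.84 and 4.47 CPM, then 3.93 and 4.34 CPM in the same order. ZNF117 lay at 55.6% of control with overexpression and 47.6% with knockdown, and ERV3-1 at 55.4% and 45.6%, with no overlap between treated and control libraries. Their annotations overlap on the same strand, so how reads were split between them is uncertain and the pair may not be independent.

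FOXQ1, a forkhead transcription factor on chromosome 6, was at 20.1, 20.1 and 21.9 CPM in controls, 10.2, 12.8 and 10.9 CPM with overexpression and 10.7 and 10.4 CPM with knockdown. SEC61A2 on chromosome 10, a paralog of the pore subunit through which new proteins enter the endoplasmic reticulum, was at 62.8, 63 and 61.6 CPM, then 34.9, 32.8 and 34.9 CPM, then 33.1 and 34.1 CPM. In both genes the treated groups overlapped each other and lay far below the controls. For SEC61A2 the log2 difference between overexpression and knockdown was -0.06 ± 0.07 (SE, edgeR adjusted p = 0.432), and for FOXQ1 it was 0.02 ± 0.10 (adjusted p = 0.906).

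SH3D21, which encodes a protein with SH3 domains, was at 8.2, 9.6 and 10.4 CPM in controls, 5.33, 5.8 and 4.79 CPM with overexpression and 4.17 and 4.55 CPM with knockdown. HLA-DOA, a chain of the HLA-DO dimer that modulates peptide loading of class II molecules, was at 18.2, 16.5 and 18.7 CPM, then 12.2, 11.4 and 9.97 CPM, then 8.35 and 9.71 CPM. CCDC24 was at 9.48, 10.7 and 11.4 CPM, then 6.01, 7.88 and 5.57 CPM, then 5.27 and 5.63 CPM. In SH3D21 and HLA-DOA every knockdown library lay below every overexpression library, while in CCDC24 these groups overlapped.

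**Figure D2:**
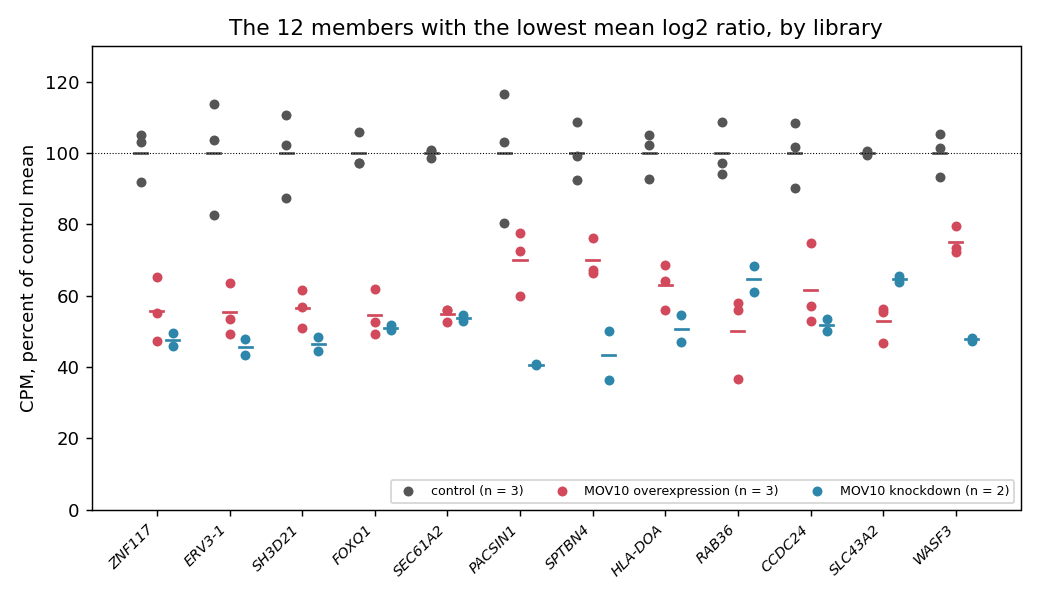
CPM as a percent of the control mean for the 12 members with the lowest mean log2 ratio, with a point for each library and a bar for each group mean. Every treated library lies below the controls of its gene, and PACSIN1, SPTBN4 and WASF3 show the widest gap between overexpression and knockdown, while SEC61A2 and FOXQ1 show almost none.

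The difference between overexpression and knockdown was tested for each member in the fit across all genes. The rule set no limit on this difference itself, but it required both ratios to be low, which bounds how far the treatments can lie apart in a member. The p-values of single differences do not allow for this selection, and the members' shares and median are descriptions that it partly fixes. The difference was called for 42 members. Of these, 18 were higher with overexpression than with knockdown (15.4% of members, background 29.3%) and 24 were lower (20.5%, background 28.1%). The median difference over members was -0.05 (quartiles -0.17 and 0.11, range -0.55 to 0.73), and over all genes past the floor -0.03. Scaling by library totals in place of TMM factors shifted this difference by 0.09 on the log2 scale for the median gene and turned the split into 22 higher and 9 lower. The shares are printed beside the background without a reading, because the selection and the members' lower abundance bear on them. For the 75 members with no call, the 95% interval reached a median of 0.19 to either side of the estimate and its bounds ran from -0.62 to 0.56, so these members are not shown to be equal in the 2 treatments. All overexpression libraries lay above both knockdown libraries in 34 members (41.8% of genes past the floor) and below them in 19 (28.8%). Without knockdown replicate 2, 10 members were called higher and 10 lower, and without overexpression replicate 1, 11 were called higher. Leaving out knockdown replicate 2 leaves 1 knockdown library, which is then assumed to vary like the other groups.

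**Figure D3:**
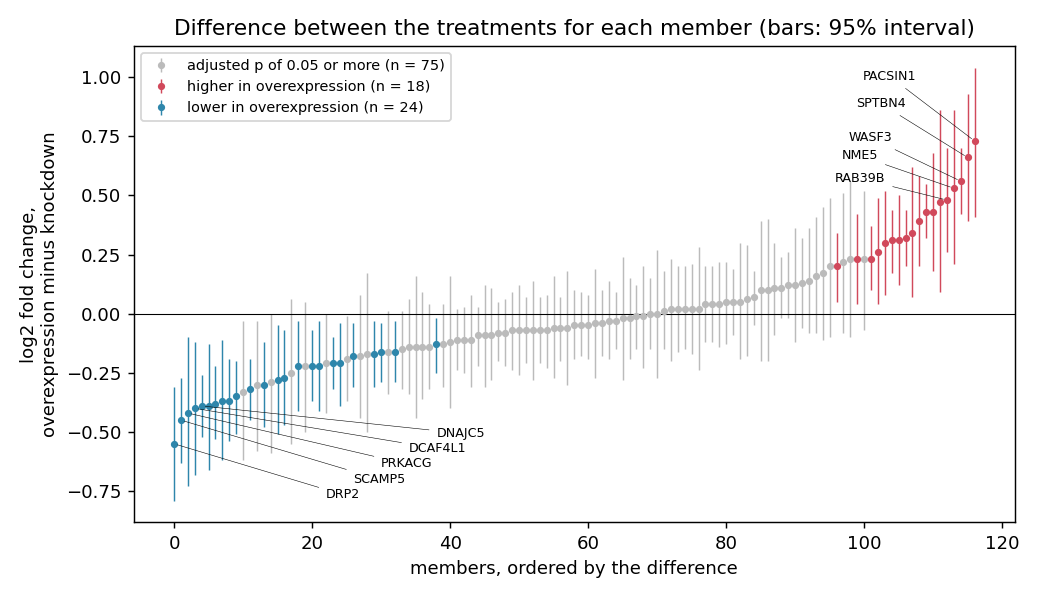
Log2 fold change of overexpression minus knockdown for each of the 117 members with its 95% interval from the edgeR fit, in order of size. The 18 members called higher reach 0.73 (PACSIN1), the 24 called lower reach -0.55 (DRP2), and the other 75 lie around 0.

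The 8 members higher with overexpression than with knockdown by the smallest adjusted p were WASF3, PNMAL1, KIF1C, SPTBN4, PACSIN1, DPYSL2, RAB39B and RAB3D. WASF3 on chromosome 13, an activator of Arp2/3-driven actin branching, was at 80.5, 83.5 and 73.9 CPM in controls, 58.2, 57.2 and 63 CPM with overexpression and 37.6 and 38.1 CPM with knockdown. Its groups formed 3 separate levels, and overexpression was higher than knockdown by 0.56 ± 0.07 (SE, edgeR adjusted p = 8.3e-07). SPTBN4, the beta-IV spectrin of the axon initial segment, was at 12.6, 13.5 and 14.8 CPM, then 9.17, 10.4 and 9.03 CPM, then 4.97 and 6.82 CPM, a difference of 0.66 ± 0.13 (adjusted p = 0.000237). PACSIN1, an F-BAR protein of synaptic vesicle endocytosis, was at 8.95, 11.5 and 13 CPM, then 8.1, 8.66 and 6.67 CPM, then 4.51 and 4.55 CPM. Its difference of 0.73 ± 0.15 (adjusted p = 0.00043) was the highest among members, although its highest overexpression library came close to its lowest control.

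KIF1C, a kinesin motor that carries vesicles and messenger RNAs, was at 162, 161 and 163 CPM in controls, 119, 123 and 109 CPM with overexpression and 86.9 and 90.1 CPM with knockdown (difference 0.32 ± 0.06, edgeR adjusted p = 8.44e-05). PNMAL1, of a family related to retrotransposon Gag proteins, was at 111, 109 and 107 CPM, then 80.2, 86 and 84.2 CPM, then 57.5 and 58.8 CPM (0.43 ± 0.06, adjusted p = 2.14e-06). In both genes replicates of a group were close and the 3 groups stood apart. DPYSL2, a tubulin-binding protein of growing axons, had a difference of 0.31 ± 0.07, and the Rab GTPases RAB39B and RAB3D had 0.48 ± 0.11 and 0.39 ± 0.09. WASF3, KIF1C, PNMAL1, DPYSL2 and HLA-DOA all hold at least 1 of the 3′UTR words shown above, as does RNFT2, and these are the 6 word holders called higher with overexpression. Among the 16 members with a word 6 were higher and 4 lower (DNAJC5, PIP5K1C, SLC43A2 and ZNF783), and the median difference was 0.08. Among the 99 without a word 12 were higher and 20 lower, with a median of -0.06. Over all genes tested 29.3% were higher and 28.1% lower. These counts are descriptions, since the selection of members and words bears on them. They also use TMM factors. Library totals shifted the difference by 0.09 for the median gene, and 22 of the 31 members then called were higher. The split by word is not given for that scaling. Among the holders, the edgeR adjusted p was near the limit for HLA-DOA (0.045), ZNF783 (0.0331), RNFT2 (0.0321) and PIP5K1C (0.0274). The holders had longer 3′UTRs (median 3044 bases against 1389), and the part of length was not tested.

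The 8 members lower with overexpression than with knockdown by the smallest adjusted p were DNAJC5, SCAMP5, ATP6V0E2, TIMM10, DRP2, ITFG2, SLC43A2 and RCC1. DNAJC5, the cysteine string protein that chaperones synaptic vesicle proteins, was at 159, 149 and 152 CPM in controls, 97.9, 101 and 88.9 CPM with overexpression and 122 and 115 CPM with knockdown. Overexpression lay below knockdown by -0.39 ± 0.06 (SE, edgeR adjusted p = 1.53e-05). SCAMP5, a secretory carrier membrane protein, was at 36.4, 36.8 and 39.6 CPM, then 21.9, 21.1 and 17.1 CPM, then 25.9 and 26.4 CPM (-0.45 ± 0.09, adjusted p = 0.000167). ATP6V0E2, a subunit of the membrane sector of the vacuolar proton pump, was at 155, 151 and 148 CPM, then 99.2, 104 and 87.9 CPM, then 117 and 113 CPM (-0.32 ± 0.06, adjusted p = 0.000168). In these 3 genes all groups were separate, with overexpression the lowest.

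TIMM10, a chaperone that escorts proteins between the mitochondrial membranes, was at 42.5, 39.2 and 39.8 CPM in controls, 26.3, 25.3 and 23.4 CPM with overexpression and 30.6 and 31 CPM with knockdown (-0.38 ± 0.07, edgeR adjusted p = 0.00019). DRP2, a dystrophin-related protein, was at 13.8, 12.3 and 15 CPM, then 7.8, 7.05 and 6.59 CPM, then 10.4 and 9.4 CPM (-0.55 ± 0.12, adjusted p = 0.000383). Also lower were ITFG2, a part of the lysosomal KICSTOR complex (-0.35 ± 0.08), and SLC43A2, a transporter of large neutral amino acids (-0.37 ± 0.09). RCC1, the exchange factor for the GTPase Ran, was lower by -0.21 ± 0.05 (adjusted p = 0.00245), a call that was lost when library totals were used for scaling (-0.12, adjusted p = 0.0566). RCC1 shares its locus and strand with the small RNA host gene SNHG3.

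Grouped by textbook role, an assignment made after the values were seen, the members spread over many functions. Membrane traffic and small GTPases had 15 members (median ratios -0.57 with overexpression and -0.58 with knockdown), and 5 of them were higher and 6 lower with overexpression than with knockdown (29.3% and 28.1% over all genes). Besides the genes above these included RAB36, which was at 19, 19.6 and 21.9 CPM in controls, 11.3, 11.7 and 7.38 CPM with overexpression and 12.3 and 13.8 CPM with knockdown. The third overexpression library of RAB36 stood well below the other two. TBC1D5 and TBC1D25, which switch Rab GTPases off, lay at 65.6% and 77.9% of control with overexpression and at 69.2% and 77.3% with knockdown.

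Cytoskeletal and neuronal or junctional scaffold genes had 14 members (medians -0.56 and -0.55), with 4 higher and 3 lower with overexpression than with knockdown, near or below the same background. DPYSL5, a relative of DPYSL2, was at 119, 119 and 126 CPM in controls, 83.3, 86.8 and 74.7 CPM with overexpression and 80.8 and 84.2 CPM with knockdown. Unlike DPYSL2, its treated groups overlapped, with a difference of -0.09 ± 0.06 (SE, edgeR adjusted p = 0.198). The gap between these paralogs was not itself tested. In a list of 50 tested genes of the neuronal cytoskeleton and axon, 3 were members. Of the 50, 14 were lower and 15 higher with overexpression than control (backgrounds 24.1% lower and 25.2% higher), and 23 were lower and 10 higher with knockdown (19.1% lower and 19.9% higher). In a list of 59 tested genes of synaptic vesicles and regulated secretion, 3 were members (PACSIN1, RAB3D and SCAMP5), and 11 were lower and 31 higher with overexpression, against 21 lower and 15 higher with knockdown, beside the same backgrounds.

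The lysosome and proton pump gave 3 members. IDS, the lysosomal iduronate 2-sulfatase on the X chromosome, was at 174, 182 and 177 CPM in controls, 124, 119 and 129 CPM with overexpression and 107 and 116 CPM with knockdown. ATP6V1C1, the C subunit of the pump, was at 102, 101 and 99 CPM, then 69.8, 73.4 and 71.4 CPM, then 74.8 and 72.9 CPM. In IDS every overexpression library lay above both knockdown libraries, with a difference of 0.07 ± 0.06 (SE, edgeR adjusted p = 0.316). ATP6V1C1 was lower with overexpression than with knockdown by -0.13 ± 0.06 (adjusted p = 0.045), although the treated libraries overlapped. This call was near the limit and used TMM factors. On library totals, which shifted the median gene by 0.09, its means were 71.5 CPM with overexpression and 73.8 CPM with knockdown. In a list of vacuolar ATPase subunits drawn up after these members were seen, 12 of 21 tested were lower with overexpression and 3 higher (ATP6V1B1, ATP6V1C2 and ATP6V1G2), beside 24.1% lower and 25.2% higher over all genes. With knockdown 3 were lower (ATP6V0E2, ATP6V1C1 and ATP6V1D) and 5 higher (ATP6AP1, ATP6AP2, ATP6V0B, ATP6V0E1 and ATP6V1B2), beside 19.1% and 19.9%. The rule required the 2 members to be low in both. The list's median fold change was -0.17 with overexpression and -0.04 with knockdown, beside 0.01 and 0.00 over all genes tested.

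Cilium and centrosome genes had 7 members. IFT88, a core protein of the trains that build cilia, was at 19, 18.5 and 19.5 CPM in controls, 12.9, 12.1 and 13.3 CPM with overexpression and 15.2 and 14.2 CPM with knockdown. WDR34, an intermediate chain of the cilium's retrograde motor, was at 64.9, 62.9 and 65 CPM, then 49.9, 51.8 and 46.5 CPM, then 39 and 40.7 CPM. The order of the treatments was opposite in these genes: IFT88 was lower with overexpression than with knockdown by -0.30 ± 0.09 (SE, edgeR adjusted p = 0.00637), and WDR34 was higher by 0.23 ± 0.06 (adjusted p = 0.00382). In a list of 27 intraflagellar transport genes, also drawn up afterwards, 10 were lower and 1 (CLUAP1) higher with overexpression, beside 24.1% and 25.2% over all genes. With knockdown 6 were lower, close to the 19.1% over all genes, and 2 (IFT172 and IFT74) were higher, beside 19.9%. Members were IFT88, TRAF3IP1 and WDR34, none of which stayed inside the rule in all the checks of membership given below.

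Transcription and chromatin genes had 13 members (medians -0.43 and -0.48), including GATAD2A of the NuRD remodelling complex, CHAF1B of the chromatin assembly factor, the Notch effector HEYL and 4 HOX genes. GATAD2A was at 229, 231 and 226 CPM in controls, 174, 183 and 154 CPM with overexpression and 180 and 167 CPM with knockdown. HOXA5 was at 33, 30.4 and 27.9 CPM, then 24.1, 23 and 23.5 CPM, then 20.3 and 23.1 CPM. HOXA9, HOXD4 and HOXD9 lay at 66.4%, 74.2% and 73.2% of control with overexpression and at 75.7%, 73.4% and 67.8% with knockdown. In HOXA9 the third overexpression library (5.89 CPM) was far below the other two (9.13 and 9.58 CPM).

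HOX genes, which set position along the body axis and lie in 4 clusters, did not move as a block. Of 37 tested, 14 were lower and 4 higher with overexpression (HOXB2, HOXD8, HOXD10 and HOXD13), beside 24.1% and 25.2% over all genes. With knockdown 15 were lower and 5 higher (HOXA3, HOXA13, HOXB3, HOXC8 and HOXD13), beside 19.1% and 19.9%. In the same cluster as HOXA5 and HOXA9, and singled out after their values were seen, HOXA7 lay at 96.8% of control with knockdown and 61.4% with overexpression, and HOXA3 at 119% and 78.9%. Annotations of HOX neighbours and their antisense transcripts overlap, so reads shared between them may be counted for either gene.

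**Figure D4:**
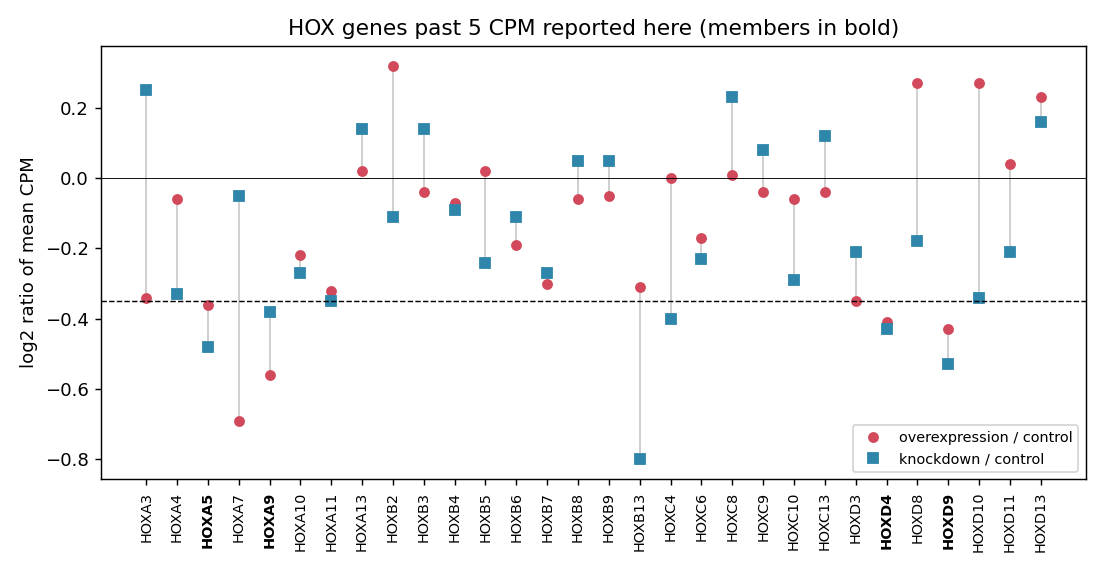
Log2 ratio of mean CPM to control with overexpression (circles) and knockdown (squares) for HOX genes past 5 CPM that are reported here, in cluster order, with members in bold and a dashed line at -0.35. HOXA5, HOXA9, HOXD4 and HOXD9 lie below the line for both treatments, while HOXA7 lies far below it with overexpression and near 0 with knockdown.

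Transporters had 7 members, 6 of them solute carriers among 197 past the floor. SLC43A2 was at 29.3, 29.1 and 29.5 CPM in controls, 16.2, 16.5 and 13.7 CPM with overexpression and 19.2 and 18.7 CPM with knockdown, with 3 separate groups. SLC7A6 and SLC7A8, which also carry amino acids, lay at 77.9% and 73.2% of control with overexpression and at 68.4% and 76.8% with knockdown. Of 252 solute carriers tested, 62 were lower and 64 higher with overexpression, close to the 24.1% and 25.2% over all genes. With knockdown 68 were lower and 30 higher, beside 19.1% and 19.9%. The drug efflux pump ABCG2 lay at 73.4% and 65.6% of control.

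The 10 genes of mitochondria and small-molecule metabolism had median ratios of -0.44 and -0.42, and TIMM10 and PYCRL were lower with overexpression than with knockdown. The PYCRL call was near the limit (-0.22 ± 0.09, SE, edgeR adjusted p = 0.0446), and its treated libraries overlapped. OXCT1, which activates ketone bodies, was at 68.5, 69.7 and 66.8 CPM in controls, 46.8, 44.3 and 50.7 CPM with overexpression and 49.1 and 46.1 CPM with knockdown. Among 5 members that handle phospholipids and glycolipids were PCYT1B and PCYT2, which catalyse the regulated steps of phosphatidylcholine and phosphatidylethanolamine synthesis. PCYT1B was higher with overexpression than with knockdown by 0.30 ± 0.10 (SE, edgeR adjusted p = 0.0184), and PCYT2 differed by -0.14 ± 0.09 (adjusted p = 0.172).

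Signalling genes had 10 members (medians -0.48 and -0.54). CDC25B, a phosphatase that activates cyclin-dependent kinases at entry to mitosis, was at 126, 121 and 125 CPM in controls, 79.3, 84.9 and 72.4 CPM with overexpression and 83.4 and 83.7 CPM with knockdown. It was the 1 member among 50 mitosis genes tested, of which 20 were lower and 6 higher with overexpression (24.1% and 25.2% over all genes). With knockdown 9 were lower and 9 higher, close to the 19.1% and 19.9% over all genes. PRKACB, a catalytic subunit of protein kinase A, was at 69.3, 75 and 67.8 CPM, then 49.3, 48.3 and 53.7 CPM, then 49.4 and 48.7 CPM. Its relative PRKACG was also a member at 5.99, 7.22 and 6.82 CPM in controls. However, PRKACG is a retrocopy, and reads may be assigned to it or to a related copy. The same limit holds for LRRC37A3, DCAF4L1 and the pseudogene KLRAP1. A further 33 members, HLA-DOA and ITFG2 among them, were grouped as other or unassigned, and their medians were -0.50 and -0.56.

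The members were described further by abundance, on which the rule set a floor, and by annotation, which it did not use. Their mean abundance ran from 5 to 217 CPM with a median of 21.8, below the 47.1 of all genes past the floor, and 29 were under 10 CPM. Of the 117, 115 were protein coding, and all matched GENCODE 29 by name or older symbol. Their 3′UTRs had a median GC content of 51.3% (quartiles 41.4% and 56.9%), against 41.9% over all genes past the floor, 52.3% for genes lower with overexpression alone and 41.6% for genes lower with knockdown alone. The median GC of whole transcripts was 54.9% against 48%. Median 3′UTR length was 1634 bases against 1499, and transcript length 3465 against 3590. Promoters differed less: over the 99 members with a RefSeq promoter sequence, median GC content was 67.3% against 65.7%, and the median number of CG pairs in 300 bases was 28 against 27. On the opposite strand 68 members overlap another annotated gene, and on the same strand 48 do. Neither count has a share over all genes beside it. The strand setting used for counting is not given in the sources used here.

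A trend over transcript GC content was widest in 1 library. Relative to the control mean, the median gene of overexpression replicate 3 ran from 0.29 in the lowest of 20 GC bins to -0.20 in the highest. Its range was 0.49 on the log2 scale, where the other treated libraries had ranges of 0.06 to 0.17. Overexpression replicate 1 also fell, from 0.11 to -0.06, whereas replicate 2 was at 0.06 in the lowest bin and 0.09 in the highest. Overexpression replicate 3 was the lowest of its group in 82 of 117 members, a count with no share over all genes beside it. The members' median coefficient of variation with overexpression was 8.59% against 6.06% for all genes past the floor. It was 4.75% against 3.76% in controls and 3.15% against 3.18% with knockdown. The part of the members' lower abundance in these values was not tested. Without overexpression replicate 3, 108 genes met the rule, 97 of them among the 117, with a median 3′UTR GC content of 50.5%. When each library's trend over GC content was removed, 101 genes met the rule and 85 of the members were among them. The median 3′UTR GC content of those 101, which include genes outside the 117, was 44.9%, nearer to that of all genes. By its construction, this adjustment also removes any relation between GC content and the treatments themselves. The part of GC content in the members' values was not otherwise tested.

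**Figure D5:**
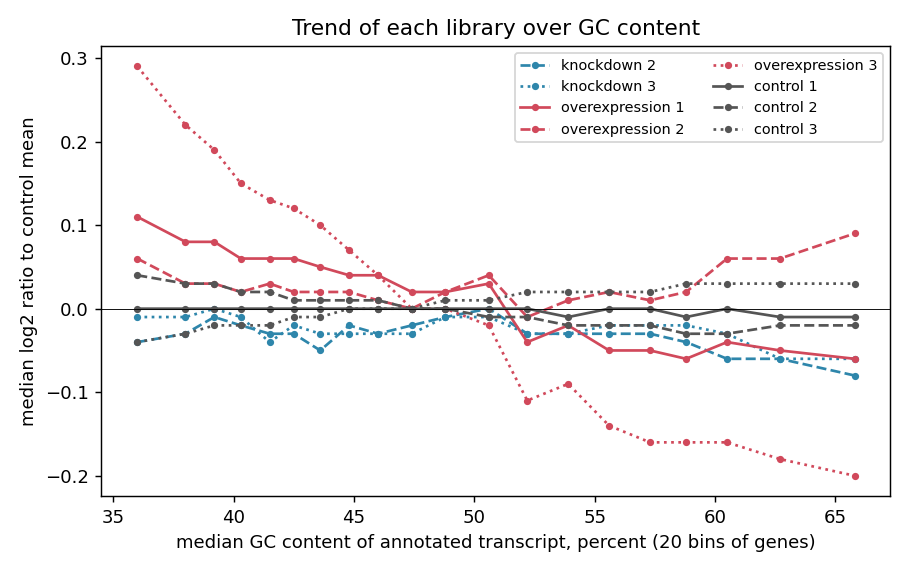
Median log2 ratio to the control mean in 20 bins of genes by GC content of the annotated transcript (x axis, percent), with a line for each library. Overexpression replicate 3 falls from 0.29 to -0.20, and the other treated libraries have ranges of at most 0.17.

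Membership held to different degrees. Leaving out any 1 library left 75 of the 117 inside the rule every time, and TMM scaling kept 97. Taking these together with the GC adjustment, 66 members met the rule throughout, among them ZNF117, ERV3-1, SH3D21, FOXQ1, SEC61A2, PACSIN1, SPTBN4, HLA-DOA, RAB36, CCDC24, SLC43A2 and WASF3. DNAJC5, RCC1, GATAD2A and ATP6V0E2 were among the members that did not, as were IFT88, TRAF3IP1, WDR34, HOXA5, HOXA9 and HOXD4. The 66 had a median 3′UTR GC content of 50.4%. In the controls, replicate 3 was the highest library in 58 members, again with no share over all genes beside it. Without that library 112 genes met the rule, 98 of them members. These are bulk libraries, so fewer cells expressing a gene and less RNA per cell cannot be told apart.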

How the data were processed

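RNA was sequenced from HEK293F cells, and the authors deposited raw whole-number read counts for each gene symbol. The submitters' processing notes name TopHat2 2.0.8 and SAMtools 0.1.18, HTSeq 0.5.3p9, Trimmomatic 0.22, CASAVA 1.8.2, the build hg19, and edgeR. Per the labels' protocols, libraries came from a stranded TruSeq kit. Libraries were grouped by their titles. All 8 were fitted together in R 4.3.3 with edgeR 4.0.16 (TMM factors, filterByExpr with a minimum count of 10, quasi-likelihood test, two-sided, Benjamini-Hochberg adjustment over 15254 genes, calls under 0.05). CPM in the text use library totals, which ran from 12.7 M to 32.8 M counts, and the lowest count behind a member's value was 39. No pair of replicates agreed within sampling noise. The fit was tested on simulated counts with known changes.

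Named genes were MOV10, the 12 members with the lowest mean ratio, the 8 with the highest control CPM, the 8 higher and the 8 lower between treatments by adjusted p, up to 4 members of a gene list and the 3 nearest the threshold on each side. Other names were chosen after their values were seen, and some items are not reported here. The members, the 33 gene lists and the roles were chosen with earlier results of these data known; 17 lists held members. Symbols were matched to GENCODE 29 (GRCh38), 103 members by name and 14 by older symbol. Alternatives were DESeq2 1.42.0, limma-voom (limma 3.58.1), other scalings, filters and thresholds, the replicate number as a block, and leaving out each library. The GC adjustment, the set without word holders, and TMM scaling combined with leaving out a library were added after seeing the data.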

Additional observations from a re-analysis of the deposited data

How the results depend on the processing

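All 117 members were called lower with overexpression under every alternative except the fit without control replicate 1, which called 116. With knockdown 100 (without knockdown replicate 2) to 117 were called. A fit without a knockdown replicate leaves 1 library there, assumed to vary like the other groups. The number of genes meeting the rule was 348 at a threshold of -0.25 and 29 at -0.5, 108 to 142 when 1 library was left out, and 113 to 148 when TMM scaling was used as well. The 42 calls between overexpression and knockdown became 21 at an adjusted p of 0.01, of which 9 were lower. They ranged from 20 to 44 when 1 library was left out, those higher from 10 to 20 (18 with all libraries) and those lower from 10 to 30 (24 with all libraries). With library totals as scaling, 9 were lower. DESeq2 called 35 and limma-voom 42. The 16 single members followed here were those named above for the smallest adjusted p between overexpression and knockdown, in either direction. Choosing the strongest calls favours stable ones, so their stability does not describe the 42 calls as a set. For these 16 members, 255 alternative values kept direction and call and 1 did not. The value that did not was that of RCC1 with library totals (-0.12, edgeR adjusted p = 0.0566). Other members are not covered by this count. No pairing by replicate number was seen. Deviations from the group means of same-numbered libraries correlated from -0.309 to 0.213 over 11142 genes, and those of differently numbered libraries from -0.235 to 0.311. Deviations within groups of 2 or 3 libraries are tied to each other, so these values cannot exclude pairing. With the replicate number as a block, 34 members were called between the treatments, 16 higher and 18 lower. The causes of these changes were not tested. Depth limits members under 10 CPM most.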
